A study of Mus musculus with 12 samples.

Results

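Macrophage marker and polarization genes were examined in inguinal white adipose tissue (iWAT) of mice with and without ATF4 in adipocytes. The genes were given as a list of 10, namely Adgre1, Cd68, Csf1r, Lyz2, Mrc1, Clec10a, Cd163, Trem2, Tnf and Itgax. Of these, 9 were among the 14159 genes with values and all 9 passed the expression filter, while Cd68 was not analysed here. Atf4AKO mice carry floxed Atf4 alleles together with Adipoq-Cre, which is active in adipocytes, and littermates with the floxed alleles served as Atf4WT controls, all on the C57BL/6 background. Both genotypes were studied at room temperature (RT) and after 24 h of cold, each of these 4 groups having 3 biological replicates, and their age is not given for these libraries in the sources used here. Whole iWAT was sequenced, and the deletion is directed to adipocytes and not to macrophages.

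Macrophages are phagocytes of the innate immune system that reside in adipose tissue and clear dying adipocytes, lipid and debris. They depend on signals through the CSF1 receptor and on the transcription factor PU.1, and they take up a range of states that are often summarized as classically activated (inflammatory, M1) and alternatively activated (tissue repair, M2). In lean adipose tissue most macrophages carry resident or alternative markers, and in obesity cells with CD11c or TREM2 accumulate around dying adipocytes.

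Values are normalized counts, that is, reads of a gene divided by the size factor of its library, and the libraries are named by their numbers 0, 1 and 2. The 12 libraries held between 25719476 and 29105147 reads on listed genes. Atf4 itself lay between 4107 and 7644 normalized counts in the 6 Atf4WT libraries and between 788 and 1639 in the Atf4AKO libraries, so the libraries followed their labels. The adipocyte marker Adipoq lay between 55499.7 and 108458 in all libraries. Both cold-exposed libraries numbered 1, 1 of each genotype, stood apart from the rest by low macrophage marker counts, and each result is given with and without them where this matters. Leaving them out was chosen after seeing the data. Summed B cell and T and NK cell markers in the cold-exposed Atf4WT libraries numbered 1 and 2 stood above those of all RT libraries. The library numbered 0 lay within the RT range, for B cell markers only through the Atf4WT RT library numbered 2 (3653 against 3662). The other RT libraries had B cell sums of 77.7 to 466. For markers of lymph node stroma the library numbered 0 (964) also stood above all RT libraries (132 to 764). The values of these markers are given beside the genes that moved with them.

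Promoters were searched for the core letters bound by PU.1, the factor that macrophages depend on, and those of an alternative marker, the lipid-associated marker and both inflammatory markers are printed here. Promoters of 6 of the 9 genes were taken from RefSeq (GRCm38.p6, the same coordinates as mm10), and those of Adgre1, Csf1r and Clec10a are not reported here. The 250 bases before the RefSeq start of the gene, which for Mrc1 and Itgax lies after the GENCODE start given with the gene, are printed 5′ to 3′ on the strand of the gene. Capitals mark the core letters GAGGAA of PU.1 sites on either strand.
Mrc1 (chr2:14229164-14229413, plus strand): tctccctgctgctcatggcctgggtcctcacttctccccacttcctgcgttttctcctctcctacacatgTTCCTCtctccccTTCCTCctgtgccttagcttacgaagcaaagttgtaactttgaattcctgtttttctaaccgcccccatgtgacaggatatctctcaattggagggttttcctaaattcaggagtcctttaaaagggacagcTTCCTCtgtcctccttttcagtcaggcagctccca
Trem2 (chr17:48346151-48346400, plus strand): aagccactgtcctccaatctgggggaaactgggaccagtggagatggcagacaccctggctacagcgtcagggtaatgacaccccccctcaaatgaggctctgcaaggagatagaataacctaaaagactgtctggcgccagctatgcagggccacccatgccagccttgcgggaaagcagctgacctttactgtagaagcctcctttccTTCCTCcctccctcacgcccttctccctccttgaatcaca
Tnf (chr17:35202008-35202257, minus strand): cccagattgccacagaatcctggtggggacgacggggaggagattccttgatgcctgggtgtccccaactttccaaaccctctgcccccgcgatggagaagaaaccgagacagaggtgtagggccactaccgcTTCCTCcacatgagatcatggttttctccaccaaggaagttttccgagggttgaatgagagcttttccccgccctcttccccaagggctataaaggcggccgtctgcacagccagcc
Itgax (chr7:128129300-128129549, plus strand): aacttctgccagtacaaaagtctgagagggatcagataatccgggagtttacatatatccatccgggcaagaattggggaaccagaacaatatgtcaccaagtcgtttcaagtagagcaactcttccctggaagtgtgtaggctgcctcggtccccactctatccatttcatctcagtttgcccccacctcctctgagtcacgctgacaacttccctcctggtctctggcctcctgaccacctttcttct
The PU.1 core occurred 3 times before Mrc1, 1 time each before Trem2 and Tnf, and 0 times before Itgax, Lyz2 and Cd163. It occurred in 23.3% of all 32851 promoters of the same length. The C/EBP-ATF response element, searched as TGATGNAA on both strands, occurred in 3.45% of all promoters and in none of the 6, so the motifs did not overlap there. These matches are descriptions of letters and say nothing on binding.

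Levels of different genes were compared only per kb of transcript. At RT in Atf4WT iWAT, Lyz2 was the most abundant gene of the list with 9003 ± 1364 normalized counts per kb (SD, n = 3). Clec10a followed with 1575 ± 91.3, Csf1r with 887 ± 158, Mrc1 with 554 ± 107, Cd163 with 519 ± 167, Adgre1 with 238 ± 52.7, Trem2 with 122 ± 80.4, Itgax with 23.5 ± 9.81 and Tnf with 13.4 ± 14.3 normalized counts per kb. In this order of levels the neighbours Mrc1 and Cd163, Adgre1 and Trem2, and Itgax and Tnf overlapped between libraries, and the other neighbours did not. The mean levels of the alternative markers stood above those of both inflammatory markers in every group. The same 3 genes, Lyz2, Clec10a and Csf1r, led in each of the 4 groups. After cold most neighbours in the order overlapped, and in Atf4AKO iWAT all 8 did.

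The pan-macrophage genes did not pass the test in any comparison, and their spread after cold was wide. Adgre1 (chr17:57358691-57483527) encodes F4/80, the surface receptor by which mouse macrophages are commonly identified. Adgre1 had 859, 574 and 878 normalized counts in Atf4WT and 1155, 670.1 and 777 in Atf4AKO at RT, then 606, 153 and 655 in Atf4WT and 945, 120.2 and 752 in Atf4AKO after cold. The libraries numbered 1 were the low ones in both cold groups, and the groups overlapped. With cold the log2 fold change was -0.94 ± 0.72 (SE) in Atf4WT and -0.94 ± 0.72 in Atf4AKO (limma, adjusted p = 0.343 and 0.362). When the cold libraries numbered 1 were left out, it was -0.26 and -0.0019 (adjusted p = 0.47 and 0.998).

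Csf1r encodes the receptor of the growth factors CSF1 and IL-34, on which macrophage survival depends. Csf1r had 3317, 2891 and 4094 normalized counts in Atf4WT and 5049, 2214 and 3077 in Atf4AKO at RT, then 3018, 1202 and 3352 in Atf4WT and 2482, 603 and 3099 in Atf4AKO after cold. Again both low values after cold were those of the libraries numbered 1. The log2 fold change with cold was -0.56 ± 0.57 in Atf4WT and -0.96 ± 0.57 in Atf4AKO (limma, adjusted p = 0.48 and 0.238), and without these libraries it was -0.096 and -0.23.

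Lyz2 (chr10:117277331-117282321) encodes lysozyme, a bactericidal enzyme that macrophages, monocytes and neutrophils secrete. Lyz2 had 12699, 9786 and 13060.3 normalized counts in Atf4WT and 16434.5, 10078 and 12175.5 in Atf4AKO at RT, then 14549.8, 8176 and 19377 in Atf4WT and 14647, 1985 and 11173.5 in Atf4AKO after cold. Unlike Adgre1 and Csf1r, its mean was not lower after cold in Atf4WT iWAT, where 2 of 3 libraries lay above all Atf4WT libraries at RT. With cold the log2 fold change was 0.17 ± 0.60 in Atf4WT and -0.88 ± 0.60 in Atf4AKO (limma, adjusted p = 0.857 and 0.308). Leaving out the cold libraries numbered 1 gave 0.51 and 0.018, and leaving out the cold Atf4WT library numbered 2 gave -0.11 in Atf4WT. Of the 1267 windows of 50 bases in the Lyz2 transcript, 195 (15.4%) also occur in Lyz1, its neighbour and close relative. The study counted uniquely mapped reads, so reads from shared stretches may be missing from either gene.

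**Figure D1:**
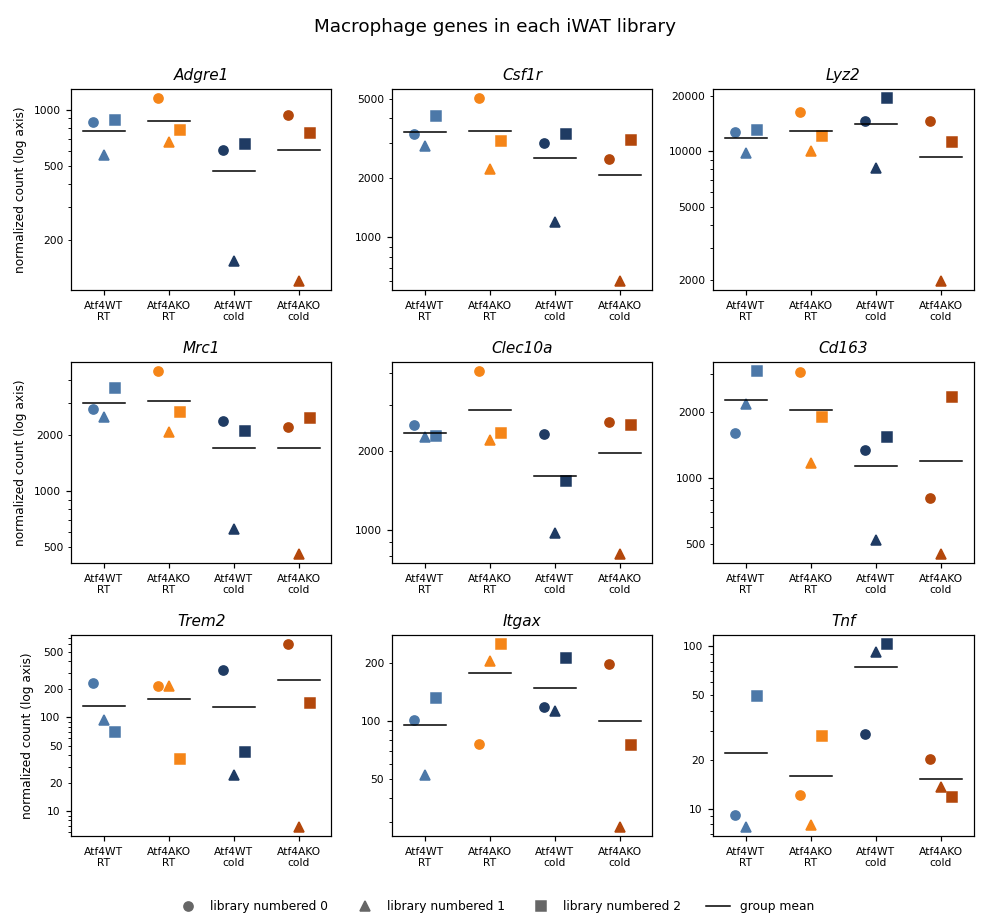
Normalized counts of the 9 macrophage genes in each of the 12 iWAT libraries, on log axes with a separate scale for each gene, by group, with the group mean as a line and the library number as the marker. The cold libraries numbered 1 (triangles) lie lowest in their group for 8 genes of the Atf4AKO group, all except Tnf, while the 3 Atf4WT values of Tnf after cold, from 28.8 to 103, lie above the Atf4AKO values, from 11.8 to 20.2.

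The alternative and resident markers Mrc1, Clec10a and Cd163 had lower means after cold in both genotypes, and none passed the test. Mrc1 (chr2:14229392-14332057) encodes the mannose receptor CD206, an endocytic receptor used as the main M2 marker. Mrc1 had 2780.1, 2521 and 3625 normalized counts in Atf4WT and 4432, 2098 and 2664 in Atf4AKO at RT, then 2391, 623 and 2119 in Atf4WT and 2218, 458 and 2471 in Atf4AKO after cold. In Atf4WT all cold libraries lay below all RT libraries, and in Atf4AKO the groups overlapped. The log2 fold change with cold was -1.002 ± 0.64 in Atf4WT and -1.10 ± 0.64 in Atf4AKO (limma, adjusted p = 0.252 and 0.226). When the cold libraries numbered 1 were left out, it was -0.39 and -0.32 (adjusted p = 0.32 and 0.466).

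Clec10a (chr11:70156197-70170834) encodes the galactose-binding lectin MGL1 of alternatively activated macrophages and some dendritic cells. Clec10a had 2513, 2263 and 2293 normalized counts in Atf4WT and 4041, 2217 and 2356 in Atf4AKO at RT, then 2329.8, 972 and 1542 in Atf4WT and 2596, 812 and 2529 in Atf4AKO after cold. It varied least of the list at RT in Atf4WT, with a coefficient of variation of 5.80%, against 42.2% after cold. With cold the log2 fold change was -0.63 ± 0.43 in Atf4WT and -0.66 ± 0.43 in Atf4AKO (limma, adjusted p = 0.288 and 0.283). When the cold libraries numbered 1 were left out, it was -0.31 and -0.11. Of the 1447 windows of 50 bases in its transcript, 242 (16.7%) also occur in Mgl2, the gene of a closely related lectin. As for Lyz2, reads from such stretches may be missing from either gene.

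Mgl2, also a lectin gene of alternatively activated macrophages, passed the test, and its difference from Clec10a was not tested. Mgl2 had 1678, 1563 and 2069 normalized counts in Atf4WT and 2793, 1157 and 2140.3 in Atf4AKO at RT, then 646, 332 and 608 in Atf4WT and 366, 300.4 and 776 in Atf4AKO after cold, with no overlap between RT and cold in either genotype. Mgl2 fell with cold by 1.79 ± 0.39 on the log2 scale in Atf4WT and by 2.11 ± 0.39 in Atf4AKO (limma, adjusted p = 0.00627 and 0.00323). Lyz1 was not called in any comparison, with a log2 fold change with cold of -0.047 ± 0.68 in Atf4WT and -1.12 ± 0.68 in Atf4AKO.

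Cd163 (chr6:124304656-124330527) encodes the scavenger receptor that takes up complexes of hemoglobin and haptoglobin. Cd163 had 1612, 2176 and 3074 normalized counts in Atf4WT and 3067, 1175 and 1905 in Atf4AKO at RT, then 1348, 526 and 1543 in Atf4WT and 810.0, 452 and 2356 in Atf4AKO after cold. All cold libraries lay below all RT libraries in Atf4WT, while in Atf4AKO the cold library numbered 2 lay among the RT libraries. The log2 fold change with cold was -1.10 ± 0.59 in Atf4WT and -0.996 ± 0.59 in Atf4AKO (limma, adjusted p = 0.175 and 0.234). When the cold libraries numbered 1 were left out, it was -0.61 and -0.46. Leaving out the cold Atf4AKO library numbered 2 instead gave -1.65 in Atf4AKO, which passed the test (adjusted p = 0.0486).

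Trem2 (chr17:48346401-48354147) encodes a lipid-sensing receptor of lipid-associated macrophages, and it was by far the most variable gene of the list. Trem2 had 232, 94.3 and 70.5 normalized counts in Atf4WT and 217, 216 and 36.2 in Atf4AKO at RT, then 323, 24.3 and 42.4 in Atf4WT and 601, 6.80 and 142 in Atf4AKO after cold. The highest of the 12 values was 88.3 times the lowest, and both were from cold-exposed Atf4AKO iWAT. For the other 8 genes this ratio lay between 4.98 (Clec10a) and 13.3 (Tnf). The standard error of each Trem2 fold change between groups was 1.43 on the log2 scale, so that the 95% confidence interval for Atf4AKO against Atf4WT after cold ran from -2.83 to 3.44 around 0.31. With cold the log2 fold change was -0.72 in Atf4WT and -0.46 in Atf4AKO (limma, adjusted p = 0.729 and 0.837). When the cold libraries numbered 1 were left out, it was 0.021 and 1.28, and edgeR and DESeq2 gave 0.68 in Atf4AKO, so the direction depended on the setting.

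Tnf (chr17:35199381-35202007) encodes tumor necrosis factor, a cytokine of activated macrophages and T cells, and it was the only member past the DEG threshold of the study, a fold change over 1.5 with an unadjusted p-value under 0.05. Tnf had 9.19, 7.70 and 49.1 normalized counts in Atf4WT and 12.1, 7.97 and 27.8 in Atf4AKO at RT, then 28.8, 91.8 and 103 in Atf4WT and 20.2, 13.6 and 11.8 in Atf4AKO after cold. After cold all Atf4WT libraries lay above all Atf4AKO libraries, whereas within Atf4WT the RT library numbered 2 overlapped with the cold libraries. With cold the log2 fold change was 2.00 ± 0.71 in Atf4WT (limma, adjusted p = 0.0516) and 0.077 ± 0.71 in Atf4AKO (adjusted p = 0.946). Between genotypes it was -2.06 ± 0.71 after cold (limma, adjusted p = 0.241) and -0.13 ± 0.71 at RT. The difference of the cold responses was -1.93 ± 1.01 (limma, adjusted p = 0.813).

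Tnf had a mean of 31.9 normalized counts over the 12 libraries, and 1 library at a time decided its calls. The cold response in Atf4WT passed the adjusted test without the Atf4WT RT library numbered 2 (2.81, adjusted p = 0.00916), without the cold Atf4WT library numbered 0 (2.58, adjusted p = 0.0249) or without the Atf4AKO RT library numbered 2 (2.00, adjusted p = 0.0476). It missed the DEG threshold without the Atf4WT RT library numbered 0 (1.66) or 1 (1.54), and without the cold Atf4WT library numbered 1 (1.76) or 2 (1.68). The difference between genotypes after cold missed the DEG threshold without the cold Atf4WT library numbered 1 (-1.81) or 2 (-1.73). Over the 21 alternatives the adjusted p for this difference ranged from 0.0591 to 0.799 and its direction did not change. Both cold libraries numbered 1 left out, the log2 fold change was 1.76 with cold in Atf4WT and -1.75 between genotypes after cold (limma, adjusted p = 0.156 and 0.799).

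Itgax (chr7:128129547-128150657) encodes CD11c, an integrin of dendritic cells and of inflammatory adipose tissue macrophages. Itgax had 101, 52.9 and 132 normalized counts in Atf4WT and 76.2, 205 and 250.5 in Atf4AKO at RT, then 119, 113 and 213 in Atf4WT and 198, 28.3 and 75.2 in Atf4AKO after cold. The groups overlapped in each comparison. The log2 fold change with cold was 0.67 ± 0.65 in Atf4WT and -1.06 ± 0.65 in Atf4AKO (limma, adjusted p = 0.462 and 0.256). The difference of these responses was -1.72 ± 0.92 (limma, adjusted p = 0.839). It passed the DEG threshold without the Atf4AKO RT library numbered 0 (-2.24) or the cold Atf4AKO library numbered 0 (-2.42), and was -1.20 without the cold libraries numbered 1.

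Across the list, cold exposure left 0 of 9 genes past an adjusted p of 0.05 in either genotype. In Atf4WT 31.9% of all 13404 tested genes were called in this way, and in Atf4AKO 25.9%. At an unadjusted p under 0.05 the counts were 1 (Tnf) in Atf4WT and 0 in Atf4AKO, against 5820 and 5235 of the 13404 tested genes. By adjusted p edgeR and DESeq2 also called 0 members in both. Over all genes edgeR called 4307 and 3464 of 13404, and DESeq2 4765 and 4011 of 14159. The DEG threshold was passed by 1 of 9 members in Atf4WT, against 21.2% of all tested genes, and by 0 of 9 in Atf4AKO, against 17.2%. In Atf4WT the cold and RT libraries did not overlap for 2 of 9 members (Mrc1 and Cd163), against 46.8% of tested genes, and in Atf4AKO for 0 of 9, against 41.7%. The median log2 fold change of the members was -0.63 in Atf4WT and -0.94 in Atf4AKO, beside 0.0026 and -0.032 for all tested genes. By either rule the members were called no more often than tested genes as a whole. With the cold libraries numbered 1 left out, 0 of 9 members passed either rule in either genotype. In that fit 3205 of 13404 tested genes in Atf4WT and 2228 in Atf4AKO passed by adjusted p, and 2682 and 1932 by the DEG threshold.

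Between genotypes, 0 of 9 members passed an adjusted p of 0.05 at either temperature by limma, edgeR or DESeq2. Of all tested genes limma called 0.0298% after cold and 0.00746% at RT. In the same way edgeR called 3 and 1 of 13404 genes, and DESeq2 600 and 4 of 14159. The counts at an unadjusted p under 0.05 were 1 (Tnf) after cold and 0 at RT, against 1571 and 205 of the 13404 tested genes. After cold 1 of 9 members (Tnf) passed the DEG threshold and did not overlap between genotypes, against 6.4% and 16.5% of tested genes. At RT 0 of 9 did so, against 0.463% and 6.3%. The median log2 fold change of the members was -0.11 after cold and 0.048 at RT. For Mrc1 the 95% confidence interval of Atf4AKO against Atf4WT after cold ran from -1.51 to 1.29 on the log2 scale, and for Adgre1 from -1.42 to 1.75, so that sizeable differences in either direction lay within both intervals. For the difference of the cold responses, 0 of 9 members passed an adjusted p of 0.05 or the DEG threshold, against 0% and 4.63% of tested genes. At an unadjusted p under 0.05 there were 0 members, against 928 of the 13404 tested genes. By edgeR and DESeq2 0 members were called, against 0 of 13404 and 138 of 14159 genes. The comparisons with cold and between genotypes share groups, so that they are not independent of each other.

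**Figure D2:**
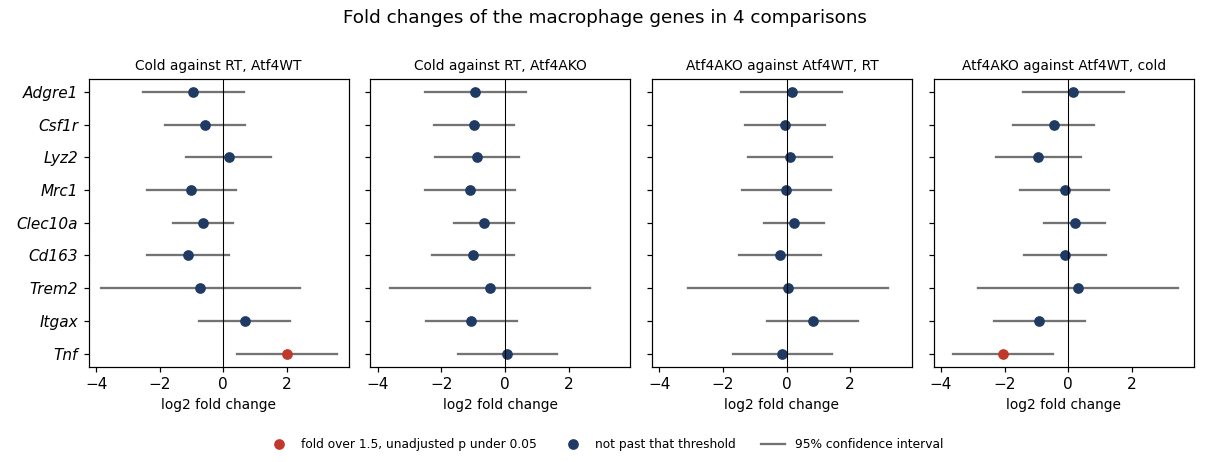
Log2 fold changes (points) with 95% confidence intervals (bars) of the 9 macrophage genes for cold against RT in each genotype and for Atf4AKO against Atf4WT at RT and after cold, from the limma fit of all 12 libraries. Tnf is past the DEG threshold (red) at 2.00 in Atf4WT with cold and at -2.06 between genotypes after cold, and the intervals of the other 8 genes include 0 in each panel.

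Because whole tissue was sequenced, fewer macrophages and less RNA per macrophage cannot be told apart. Ratios between members within a library do not depend on how many macrophages it holds where both genes come from the same cells, and they were described without a test. The ratio of Mrc1 to Adgre1 in normalized counts lay between 2.35 and 4.40 in all 12 libraries, and the groups overlapped. In the cold libraries numbered 1 it was 4.07 (Atf4WT) and 3.81 (Atf4AKO), within that range although both genes were low. Between libraries the Mrc1 level thus largely went with the Adgre1 level. In both cold groups, however, the library with the highest Adgre1 was not the one with the highest Mrc1.

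The ratio of Lyz2 to Adgre1 set cold-exposed Atf4WT iWAT apart. It lay between 14.2 and 17.1 in the 6 libraries at RT and between 14.9 and 16.5 in cold-exposed Atf4AKO iWAT. In cold-exposed Atf4WT iWAT it was 24.0, 53.4 and 29.6, above each of the other 9 libraries. The excess of Lyz2 over Adgre1 was thus seen in all 3 libraries of the group. Those numbered 1 and 2 had the highest lymphocyte marker sums. The library numbered 0 had a B cell sum of 3653, against 66.9 to 323 in cold-exposed Atf4AKO iWAT. Its sum of lymph node stroma markers (964) was above all RT libraries. At RT the Atf4WT library numbered 2 had a like B cell sum (3662) and a ratio of 14.9. The part of lymphoid cells in this excess was not tested. On the log2 scale the ratio was 5.07 ± 0.60 (SD, n = 3) in cold-exposed Atf4WT and 3.96 ± 0.077 in cold-exposed Atf4AKO iWAT.

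The ratio of Itgax to Mrc1, a transcript counterpart of a ratio of M1 to M2 markers, was -5.05 ± 0.46 on the log2 scale in Atf4WT at RT (SD, n = 3) and -3.37 ± 0.93 after cold. In Atf4AKO it was -4.21 ± 1.43 at RT and -4.18 ± 0.79 after cold. In Atf4WT all 3 cold libraries lay above all RT libraries, from -4.33 upward against -4.78 downward, and in Atf4AKO the groups overlapped. The highest values were in the cold Atf4WT libraries numbered 1 and 2 (-2.46 and -3.32). These also had the highest lymphocyte marker sums, and the part of other cells in this ratio was not tested. The Atf4AKO RT libraries numbered 1 and 2 (-3.35 and -3.41) lay above the cold Atf4WT library numbered 0 (-4.33). The ratio of Trem2 to Adgre1 spanned -4.43 to -0.65 over the 12 libraries, with SDs from 0.88 to 1.74 within groups. The ratio of Tnf to Adgre1 was -2.60 ± 1.83 in cold-exposed Atf4WT and -4.89 ± 1.53 in cold-exposed Atf4AKO iWAT, and these groups overlapped.

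**Figure D3:**
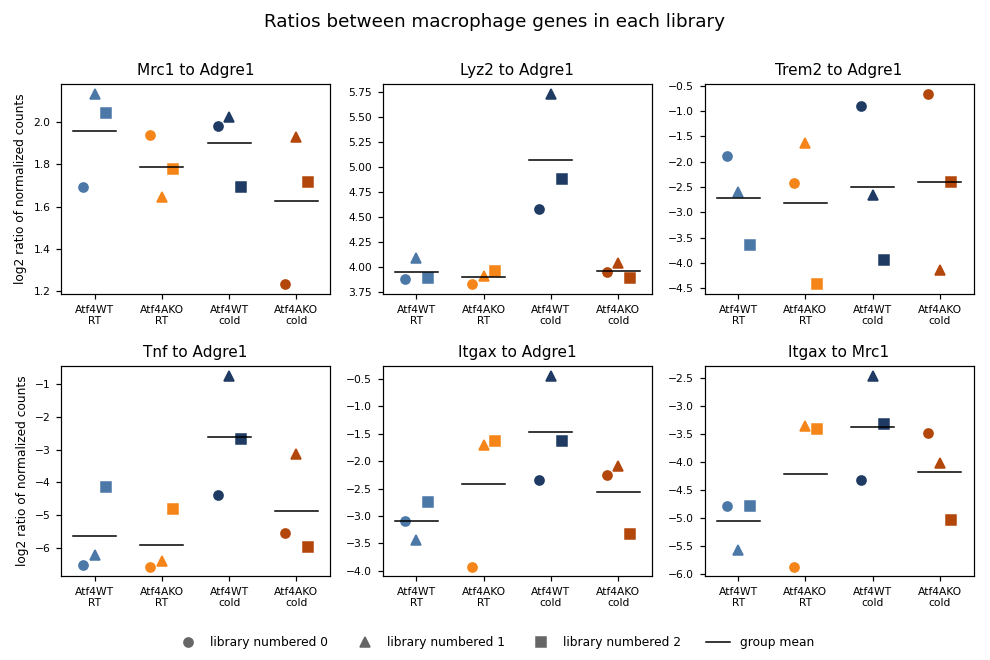
Log2 ratios of normalized counts between macrophage genes in each of the 12 libraries, by group, with the group mean as a line and the library number as the marker. The ratio of Lyz2 to Adgre1 in the 3 cold-exposed Atf4WT libraries, from 4.59 to 5.74, lies above the other 9 libraries, from 3.83 to 4.09, while the ratio of Mrc1 to Adgre1 overlaps between all groups.

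Over the 12 libraries the members differed in how closely their values went together, which is given as a description since the libraries share 4 groups. Adgre1, Csf1r, Mrc1, Clec10a and Cd163 correlated with each other at Pearson r from 0.79 to 0.97 on log2 values over 12 libraries (10 of the 36 pairs). The strongest pair was Csf1r with Mrc1 (0.97). Lyz2 correlated with these 5 genes at r = 0.90 (Csf1r), 0.83 (Adgre1), 0.81 (Mrc1), 0.73 (Clec10a) and 0.64 (Cd163). Tnf correlated with the other members at r from -0.42 to 0.42, and Itgax was closest to Lyz2 (0.69). Trem2 was closest to Clec10a (0.80) and least like Cd163 (0.39) apart from Itgax and Tnf.

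The genes most like each member, by Pearson r over 12 libraries among the 11834 genes other than the members whose mean count reached 50, were as follows. Adgre1 was most like Clec4a1 (0.99), Clec4a3 (0.99) and Wfdc17 (0.98), and Csf1r most like Fcgr2b (0.99), Tgfbi (0.98) and C1qa (0.98). Mrc1 was most like Olfml2b, Myof and Cbr2 (all 0.99), Clec10a most like Gnpda1 (0.98), Tbxas1 (0.97) and Fcgr3 (0.97), and Cd163 most like Smpd3, C7 and Serping1 (all 0.98). Lyz2 was most like Spi1, the gene of PU.1 (0.99), then Emp3 (0.98) and Ms4a6c (0.97). Trem2 was most like Lgals3 (0.92), which encodes galectin 3, a protein of lipid-associated macrophages, then Dpep2 (0.91) and Metrnl (0.87).

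Tnf was most like Gimap8, Carmil2 (both 0.98) and Tnfrsf18 (0.98), of which Tnfrsf18 encodes the receptor GITR of T cells. Itgax was most like Gzma, the gene of a granule protease of cytotoxic lymphocytes (0.91), then Efhd2 (0.91) and H2-Q4 (0.90). These values describe shared variation over 12 libraries, among which the lymphocyte markers of 2 cold-exposed Atf4WT libraries stood highest.

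The study lists antibodies to CD45, F4/80, CD11b, CD206 and CD11c, and the transcripts of these proteins were read side by side. Its flow cytometry of iWAT counted cells after a longer cold exposure than the 24 h of these libraries. Ptprc, the gene of the common leukocyte antigen CD45, had 650.5, 488 and 1181 normalized counts in Atf4WT and 923, 624 and 1071 in Atf4AKO at RT, then 1236, 2699 and 4645 in Atf4WT and 1001, 245 and 519 in Atf4AKO after cold. All cold-exposed Atf4WT libraries lay above the other 9. Ptprc rose with cold in Atf4WT by 1.79 ± 0.55 on the log2 scale (limma, adjusted p = 0.0299), and its log2 fold change between genotypes after cold was -2.31 ± 0.55 (limma, adjusted p = 0.0793). The myeloid integrin gene Itgam (CD11b) had a log2 fold change with cold of -0.65 ± 0.86 in Atf4WT and -0.68 ± 0.86 in Atf4AKO, with the same low libraries as Adgre1 (149.9 and 96.4 normalized counts in those numbered 1). Of the 5 transcripts that of the leukocyte antigen passed the test with cold in Atf4WT, and 0 of 5 passed in Atf4AKO. Of all tested genes 31.9% passed in Atf4WT and 25.9% in Atf4AKO.

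Of the further markers that the study measured by PCR, Nos2, Il1b and Arg1 were added here after the other values had been seen, and Il6 was not analysed here. Nos2, the gene of inducible nitric oxide synthase, had log2 fold changes with cold of -0.55 ± 0.24 in Atf4WT and -0.52 ± 0.24 in Atf4AKO (limma, adjusted p = 0.104 and 0.131) and of 0.10 ± 0.24 between genotypes after cold. Il1b, the gene of interleukin-1 beta, had 19.5, 10.6 and 29.2 normalized counts in cold-exposed Atf4WT and 1.06, 2.27 and 8.60 in cold-exposed Atf4AKO iWAT, which do not overlap. Il1b and Arg1, the gene of arginase 1 (1.88 to 13.4 in cold-exposed Atf4WT and 2.27 to 42.5 in cold-exposed Atf4AKO), had means under 10 normalized counts and were not tested.

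The ligands and partners of the members were read next. Of 12 such genes, 1 rose and 3 fell with cold in Atf4WT, and 2 fell in Atf4AKO. Il34, a ligand of the CSF1 receptor, had 586, 682 and 708 normalized counts in Atf4WT and 521, 640.2 and 611 in Atf4AKO at RT, then 428, 322 and 303 in Atf4WT and 399.7, 265 and 371 in Atf4AKO after cold. Il34 fell by 0.92 ± 0.18 on the log2 scale in Atf4WT and by 0.79 ± 0.18 in Atf4AKO (limma, adjusted p = 0.00323 and 0.00811), without overlap between RT and cold. Csf1, the other ligand of this receptor, had 2221, 2149 and 2372 normalized counts in Atf4WT at RT and 1499, 866 and 1516 after cold. Csf1 fell by 0.84 ± 0.25 in Atf4WT (limma, adjusted p = 0.0272), and its log2 fold change in Atf4AKO was -0.72 ± 0.25 (limma, adjusted p = 0.0571).

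Tnfsf12, the gene of the TNF family cytokine TWEAK, fell by 0.54 ± 0.16 in Atf4WT and by 0.72 ± 0.16 in Atf4AKO (limma, adjusted p = 0.0274 and 0.00869). The gene of the adaptor DAP10, Hcst, rose by 1.79 ± 0.53 in Atf4WT (limma, adjusted p = 0.0255), with 55.5, 129.8 and 170.5 normalized counts against 28.5, 17.3 and 55.6 at RT. After removal of both cold libraries numbered 1, 2 of the 12 genes were called in each genotype. Tyrobp, which encodes the signaling adaptor of TREM2, had a log2 fold change with cold of -0.015 ± 0.51 in Atf4WT and -0.79 ± 0.51 in Atf4AKO. Itgb2, which encodes the integrin chain that pairs with CD11c and CD11b, had 0.65 ± 0.57 and -0.80 ± 0.57. The TNF receptor genes Tnfrsf1a and Tnfrsf1b had -0.34 ± 0.13 and 0.11 ± 0.38 in Atf4WT and did not pass the test.

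Wider gene lists were read next. Their counts with cold, like those of the ligands and partners, stand beside 31.9% of all tested genes called in Atf4WT and 25.9% in Atf4AKO. Without the cold libraries numbered 1, their counts stand beside 3205 and 2228 of 13404 genes. Of each list the genes with the highest mean count are named, and genes named because they passed the test were chosen after their values were seen. In a list of 26 further pan-macrophage genes, 2 rose and 2 fell with cold in Atf4WT, and 1 fell in Atf4AKO. The risen genes were Marco (3.49 on the log2 scale), a scavenger receptor gene of macrophages in lymphoid organs, and Irf8 (1.23), the gene of a transcription factor of mononuclear phagocytes and B cells. Cd14 and Tlr4, both of endotoxin sensing, fell by 0.71 and 0.64 in Atf4WT, and Aif1 fell by 1.32 in Atf4AKO. The complement genes C1qa, C1qb and C1qc had log2 fold changes with cold from -0.69 to -0.61 in Atf4WT and from -1.18 to -1.10 in Atf4AKO, and none passed. The median log2 fold change of the list was 0.0069 in Atf4WT and -0.72 in Atf4AKO. In a fit without the cold libraries numbered 1, 4 were called in Atf4WT and 0 in Atf4AKO. Between genotypes after cold 0 of 26 passed an adjusted p of 0.05 by limma and by edgeR, and 3 did by DESeq2. Over all genes DESeq2 called 600 of 14159 in this comparison. The DEG threshold was passed by 7, all lower in Atf4AKO. Of all tested genes 6.4% passed it in this comparison, 810 of them lower and 48 higher in Atf4AKO.

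Of 22 tested alternative and resident markers, 4 fell with cold in Atf4WT and 4 in Atf4AKO, and 0 rose, which in number is below the share of all tested genes called in Atf4WT (31.9%) and in Atf4AKO (25.9%). Those that fell in Atf4AKO were Retnla (2.24), the gene of an adipose resistin-like protein and a common M2 marker, Mgl2 (2.11), Fcrls (2.06) and Gas6 (1.45), the gene of a ligand for receptors of dying cell uptake. In Atf4WT Mgl2 (1.79), Gas6 (1.29), Tgm2 (0.37) and Stat6 (0.32) fell, all on the log2 scale. F13a1, which encodes a subunit of coagulation factor XIII that resident macrophages make, had a log2 fold change of -1.16 in Atf4WT and -1.14 in Atf4AKO and did not pass. Retnla missed the adjusted test in Atf4WT at -1.55 ± 0.61 (limma, adjusted p = 0.0736). With the cold libraries numbered 1 left out, 3 of the list were called in Atf4WT and 4 in Atf4AKO. The summed count of the list was 40509.5 to 52478 in Atf4WT at RT and 19845 to 33319 after cold, and 37026 to 60913.5 and 17686 to 35668 in Atf4AKO, without overlap between RT and cold in either genotype. In the 4 other cold libraries the sums were 27574 to 35668, also below all RT sums. The sum of fibroblast markers was likewise lower after cold, and its part in this result was not tested.

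Of 16 tested classical inflammatory markers, 2 rose and 1 fell with cold in Atf4WT, and 3 fell in Atf4AKO. Il12b (2.61), the gene of a subunit of interleukin 12, and Ccl5 (2.50), a chemokine gene of T cells and macrophages, rose in Atf4WT. Cxcl9, an interferon-induced chemokine gene, fell in both genotypes, by 0.78 ± 0.23 in Atf4WT and by 1.06 ± 0.23 in Atf4AKO (limma, adjusted p = 0.0265 and 0.00755). After removal of both cold libraries numbered 1, 3 were called in each genotype. Cd38, which encodes an NAD-consuming surface enzyme, had a log2 fold change with cold of 0.077 in Atf4WT and -0.37 in Atf4AKO and did not pass. Between genotypes after cold 0 of 16 passed an adjusted p of 0.05 by limma and by edgeR, and 3 did by DESeq2, beside 600 of all 14159 genes. The DEG threshold was passed by 6, all lower in Atf4AKO, against the 6.4% of all tested genes, which were mostly lower as well. For the difference of the cold responses DESeq2 called 2 of this list, beside 138 of all 14159 genes, and limma 0.

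Of 12 genes of TNF and NF-kB signaling, 3 rose in Atf4WT, namely Traf1 (2.21), Traf2 (0.59) and Ikbkb (0.43), and 3 fell in Atf4AKO, namely Relb (0.81), Nfkb2 (0.68) and Rela (0.33). Nfkbia and Nfkb1, which encode the NF-kB inhibitor and a NF-kB subunit, had log2 fold changes of 0.21 and 0.0046 in Atf4WT and did not pass in either genotype. In a fit without the cold libraries numbered 1, 1 of these was called in each genotype. Between genotypes after cold 0 of these 12 passed an adjusted p of 0.05 by limma and by edgeR, and 4 did by DESeq2, beside 600 of all 14159 genes. The DEG threshold was passed by 5, all lower in Atf4AKO, beside the same 6.4% of all tested genes.

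Of 19 lipid-associated genes, 4 rose and 2 fell with cold in Atf4WT, and 4 rose in Atf4AKO, near or below the share of all tested genes (31.9% and 25.9%). The same genes, Plin2 (1.36 and 1.15), Fabp5 (1.11 and 0.90), Syngr1 (0.65 and 0.71) and Ctsz (0.40 and 0.39), rose in both genotypes. Plin2 and Fabp5 encode a lipid droplet coat and a fatty acid binding protein that adipocytes also make, and other genes of the list, such as Lpl (-0.10 and 0.086), Apoe (-0.30 and -0.31) and Cd36 (-0.13 and 0.24), are likewise made by adipocytes and did not pass. With the cold libraries numbered 1 left out, 4 were called in Atf4WT and 3 in Atf4AKO. Of 9 tested genes of monocyte recruitment, 2 rose in Atf4WT, among them Ly6c2 (1.94), which lymphocytes also express, and Ccr2, the receptor gene of inflammatory monocytes, did not pass in any comparison, nor did Plac8 (-0.083 in Atf4WT and -0.997 in Atf4AKO).

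Markers of other cells moved with some of these genes. All 8 B cell markers and 8 of 10 T and NK cell markers rose with cold in Atf4WT, and 0 did in Atf4AKO. The summed count of the B cell markers was 3653, 7832 and 12509.9 in cold-exposed Atf4WT and 323, 66.9 and 79.5 in cold-exposed Atf4AKO iWAT, and at RT it was 107, 82.8 and 3662 in Atf4WT and 77.7 to 466 in Atf4AKO. The sum of the T and NK cell markers was 950.2, 5119 and 6231 in cold-exposed Atf4WT and 257 to 620 in cold-exposed Atf4AKO iWAT, and 246 to 1157 at RT. No marker of either list was at 0 in any library, but the lowest value of any listed gene was 1 read in each library. The absence of 0 was thus set in advance and says nothing on these cells. The Atf4WT RT library numbered 2, which has the highest Tnf at RT (49.1), was also the RT library with the highest B cell sum.

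Markers of lymph node stroma moved likewise. Of 4 tested genes 3 rose in Atf4WT with cold, and their sum was 963 to 2639 in cold-exposed Atf4WT and 118 to 435 in cold-exposed Atf4AKO iWAT. After cold Ptprc, Irf8, Marco, Traf1, Hcst and Tnf were likewise lower in Atf4AKO at the DEG threshold, and the part of lymphoid tissue in these values was not tested. Dendritic cell markers had sums of 1347 to 3703 in cold-exposed Atf4WT and 747 to 1100.1 in cold-exposed Atf4AKO iWAT, with 2 of 10 markers risen in Atf4WT.

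The cold libraries numbered 1 had low fibroblast markers as well. The sum of 5 fibroblast markers was 30788 and 28626 in these libraries, 60725 to 75044 in the other cold libraries and 108756 to 166604 at RT. Endothelial markers did not follow, with 18649 and 17966 in these libraries against 14514 to 19239 in all 12. The sum of 7 adipocyte markers was 944159 and 1039110 in these libraries, above the other 10 libraries at 618287 to 923556. What else distinguishes these libraries was not tested, and the sources used here give no dissection or batch that sets them apart.

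**Figure D4:**
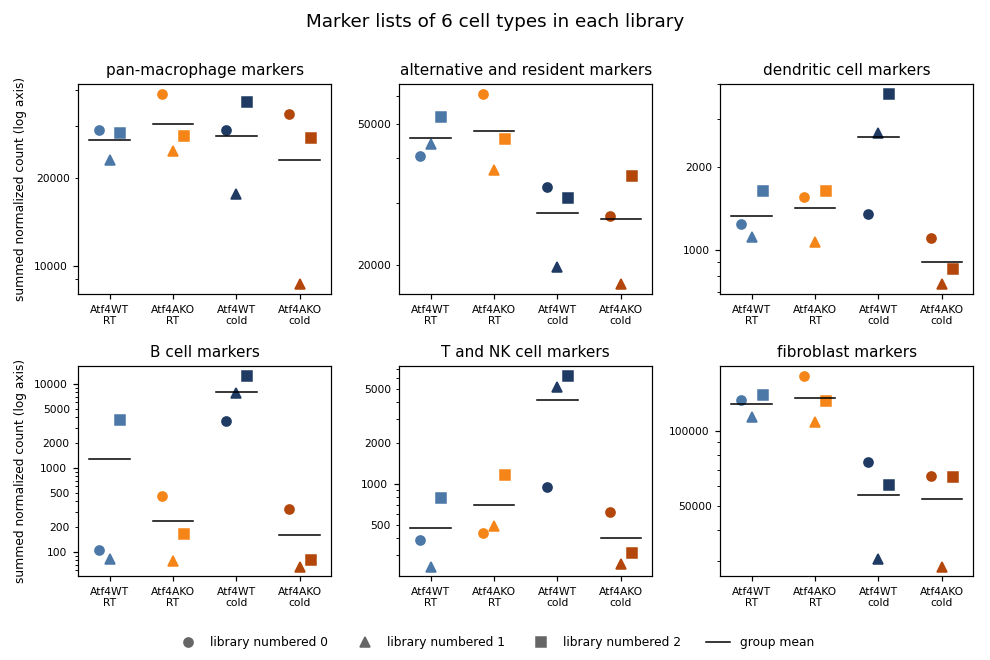
Summed normalized counts of marker lists of cell types in each of the 12 libraries, on log axes with a separate scale for each list, by group, with the group mean as a line and the library number as the marker. B cell sums of 3653 to 12509.9 set cold-exposed Atf4WT apart from cold-exposed Atf4AKO at 66.9 to 323, and the cold libraries numbered 1 (triangles) are the lowest for fibroblast markers at 30788 and 28626.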

How the data were processed

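The libraries are polyA RNA-seq of whole iWAT, 12 in all, 3 for each genotype and temperature. The deposited values are normalized counts (a signal scaled by library) that the authors made by aligning filtered reads to mm10 with STAR, counting with featureCounts and dividing by DESeq2 size factors, as named in the submitters' processing notes and the study's methods. Versions and the strand setting are not given in the sources used here. Whole reads were recovered for 100% of values within 0.01 reads, and 0 sample columns were left unused.

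Genes whose mean normalized count reached 10 were tested on log2(value + 1) with limma 3.58.1 in R 4.3.3. The fit held all 12 libraries, with Benjamini-Hochberg adjustment over 13404 genes. Fold changes of low genes depend on the added 1. For Tnf with cold in Atf4WT the value was 2.05 with 0.5 added, 2.00 with 1 and 1.72 with 5. By edgeR and DESeq2 it was 1.71 and 1.76, so the limma value is not a lower bound. All standard errors are from this fit and share its estimate of spread. edgeR 4.0.16 and DESeq2 1.42.0 on the recovered reads were alternatives. Scripts were tested on simulated data. Summaries and plots were made with pandas 2.3.3, numpy 2.4.6 and matplotlib 3.10.9 under Python 3.11.15. Gene positions are from GENCODE vM21 (GRCm38). Named are the members, their ligands and partners, the genes of 5 proteins for which the study lists antibodies, paralogs, the 3 genes of highest mean count of each other list (2 of these genes are not reported here), and the 3 genes most correlated with each member among those with a mean of at least 50. The members and all lists were chosen with earlier results of these data known. Correlations are Pearson r and are given without a test.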

Additional observations from a re-analysis of the deposited data

How the results depend on the processing

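Of the fold changes of members under the alternatives, 881 kept their direction and side of the threshold, 6 newly passed it and 89 changed sign, all of the latter from values that had not passed; the cause was not tested. Member calls with cold in Atf4WT came to 1 (Tnf) with a pseudocount of 5 and with the replicate block. Members past the DEG threshold there were 0 with a filter at a mean of 50, which removes Tnf, 2 with only the groups compared, 3 with the replicate block and 0 without both cold libraries numbered 1. In Atf4AKO 4 passed with the replicate block, and between genotypes after cold 0 passed with the filter at 50 and 0 without both cold libraries numbered 1. The main fit did not pair the samples by number. Deviations of same-numbered libraries correlated from -0.19 to 0.39, and not all were above 0.1. They correlated from 0.20 to 0.39 for those numbered 1, from -0.18 to 0.038 for 0 and from -0.19 to 0.37 for 2. Whether the numbers mark a pairing or a batch was not tested.

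Values that changed sign were, without both cold libraries numbered 1, 0.021 (Trem2, cold in Atf4WT), 0.018 (Lyz2) and 1.28 (Trem2) with cold in Atf4AKO, 0.057 (Mrc1, genotypes after cold), and 0.069 (Mrc1) and 0.20 (Clec10a) for the difference of responses. With edgeR and DESeq2 they were 0.68 and 0.68 (Trem2) and -0.083 and -0.071 (Tnf) with cold in Atf4AKO, 0.013 and 0.0041 (Mrc1) and 0.094 and 0.083 (Cd163) between genotypes after cold, 0.030 and 0.042 (Mrc1) at RT, and 0.026 and 0.0082 (Clec10a) for the difference of responses. DESeq2 gave 0.0056 (Csf1r at RT), and scaling to the 75th percentile gave -0.030 (Adgre1, difference of responses).

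Leaving out 1 library at a time gave these ranges between genotypes after cold: Adgre1 -0.51 to 1.10, Cd163 -0.77 to 0.42, Clec10a -0.12 to 0.76, Csf1r -0.93 to 0.27, Mrc1 -0.73 to 0.67, Trem2 -1.08 to 2.05. At RT they were Adgre1 -0.067 to 0.32, Cd163 -0.56 to 0.13, Clec10a -0.042 to 0.39, Csf1r -0.38 to 0.21, Lyz2 -0.085 to 0.27, Mrc1 -0.31 to 0.22, Tnf -0.60 to 0.67, Trem2 -0.38 to 0.90. With cold in Atf4AKO they were Lyz2 -1.42 to 0.018, Tnf -0.29 to 0.55, Trem2 -1.85 to 1.28, and in Atf4WT Lyz2 -0.11 to 0.51, Trem2 -1.82 to 0.021. For the difference of responses they were Adgre1 -0.67 to 0.94, Cd163 -0.55 to 0.64, Clec10a -0.35 to 0.52, Csf1r -0.87 to 0.33, Mrc1 -0.71 to 0.69, Trem2 -1.13 to 2.00. Members called ranged from 0 to 1 with cold in either genotype, and members past the DEG threshold from 0 to 2 in Atf4WT, 0 to 3 in Atf4AKO, 0 to 3 between genotypes after cold and 0 to 1 for the difference.

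Over all tested genes, adjusted calls between genotypes after cold were 4, against 189 with the block, 600 with DESeq2, 0 with only the groups compared and 2 without both cold libraries numbered 1. At RT they were 1, against 2 to 4 with these and with a pseudocount of 5, and genes past the DEG threshold were 62, against 29 with the filter at 50, 138 with edgeR and 110 with DESeq2. DESeq2 called 138 for the difference of responses, against 0. Without both cold libraries numbered 1, 2228 were called with cold in Atf4AKO, against 3467, and 398 passed the DEG threshold for the difference, against 621. Leaving out 1 library, calls between genotypes after cold were 515 without the cold Atf4WT library numbered 0, 146 without the Atf4WT RT library numbered 2 and 2 to 5 otherwise. Calls for the difference of responses were 64 without the cold Atf4WT library numbered 0 and 0 otherwise, and calls with cold in Atf4AKO were 2208 without the Atf4AKO RT library numbered 0 and 2280.0 without the cold Atf4AKO library numbered 1. Genes past the DEG threshold came to 409 for the difference without the cold Atf4WT library numbered 2, and to 107 to 129 at RT without the Atf4WT RT library numbered 0 or the Atf4AKO RT library numbered 0 or 2. CVs within groups of 3 libraries reached 129%, and what part of this spread is counting error was not tested.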

Other observations

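Of 5 tested genes of type 2 signals, 1 rose with cold in Atf4WT, Gata3 (2.17 on the log2 scale), which encodes a transcription factor of T cells and innate lymphoid cells, and 0 passed in Atf4AKO. Without both cold libraries numbered 1, 0 of the 5 were called in Atf4WT. The summed T and NK cell markers were 950.2, 5119 and 6231 in cold-exposed Atf4WT and 257 to 620 in cold-exposed Atf4AKO iWAT, and their part in the Gata3 value was not tested. Il33, the gene of an alarmin of stromal cells, had log2 fold changes with cold of -0.56 in Atf4WT and -1.34 in Atf4AKO, and Il13ra1 had -0.22 and -1.02, without passing the test. Mast cell markers included 1 that fell with cold in Atf4AKO, Mcpt4 (by 2.62), the gene of a mast cell chymase, which had -1.42 in Atf4WT. Of 3 neutrophil markers, Mmp9 fell in Atf4AKO by 1.86 and had -0.99 in Atf4WT. Of 4 proliferation markers 2, Mki67 (-1.67) and Top2a (-1.75), passed the DEG threshold between genotypes after cold, without passing an adjusted p of 0.05. The summed count of the proliferation markers ranged from 70.9 to 882 over the 12 libraries. Genes named here beyond those of highest count were chosen after their values were seen.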
